A study of Mus musculus with 4 samples.

Results

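The CD45-negative cells of mouse bone marrow, sorted as stromal or niche cells, were compared between day 10 after irradiation and transplantation and day 0. The comparison uses 2 of the 4 arrays of the series, 1 for each day, and the other 2 arrays hold LSK cells, sorted for Sca-1 and c-kit in the absence of lineage markers, among which blood stem cells are found. All mice were C57BL6/J and 7 weeks old per the labels. Day 0 cells came from healthy mice, the controls. Day 10 cells came from recipients of the CD45.1 form that had received 700 cGy of radiation and 30000 LSK cells from CD45.2 donors. The question of the series was which genes of the niche mark the time when stem cells divide most. With 1 array a day there is no replicate, no test and no standard error, and each difference below is a difference between 2 arrays. Whether several mice were pooled for an array, and the sex of the mice, are not given in the sources used here.

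Marrow cells without CD45 are a mixture. They hold the reticular stromal cells, which make the chemokine CXCL12 and support stem cells, along with endothelial cells, bone-forming cells and other connective tissue cells. Maturing erythroblasts lose CD45 as they fill with haemoglobin, so they pass the same gate unless they are removed by another marker. The labels describe the stromal sort as negative for CD45.1, the form that the recipients carried, and a gate on that form alone does not itself remove leukocytes of CD45.2 donors. C57BL6/J mice are known to carry the CD45.2 form themselves. Elsewhere the labels say only CD45-negative, so the antibody is not certain.

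A level below is the log2 signal after subtraction of the array's own 75th percentile, and differences subtract day 0 from day 10. Of 29338 genes on the array, 14513 were well above background on both arrays, 1949 (6.64%) on the day 10 array only and 727 (2.48%) on the day 0 array only. At least 2-fold apart were 6010 of the genes measured on both (41.4%): 3419 (23.6%) were higher at day 10 and 2591 (17.9%) lower. The large differences were mostly downward: 435 genes were at least 8-fold lower and 122 at least 8-fold higher, and at 32-fold the counts were 49 and 19. These directions are relative to the array. The signal at the 75th percentile was 2.72-fold brighter at day 10, while 5 spike-in controls lay between -3.37 and -2.99 on the same scale. A shift by the spike-ins would add 3.29 to every difference, which would make 13718 genes at least 2-fold higher and 130 lower, or 99.1% of the genes apart higher in place of 56.9%. Spots also saturate: 66 genes were saturated on both arrays, 14 at day 0 only and 268 at day 10 only, from a level of 8.93 at day 0 and 7.41 at day 10. A gene saturated on both arrays has no fold. All 66 of them are counted among the lower genes, with a median of -1.45, since the ceiling of the day 10 array lies lower on this scale.

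**Figure D1:**
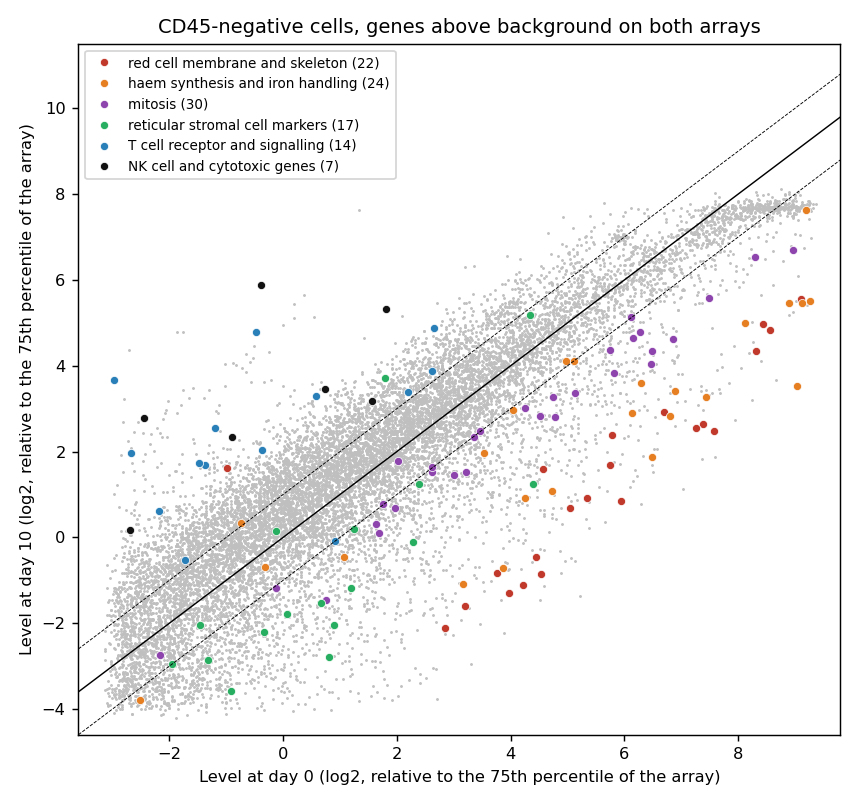
Each point is a gene above background on both CD45-negative arrays, with its level at day 0 on the horizontal axis and at day 10 on the vertical axis (log2, relative to the 75th percentile of each array). The solid line marks equal levels, the dashed lines 2-fold, and the coloured points members of 6 gene lists. Red cell and haem genes lie far below the line, relative to the array (the haem median would be about 0 after the spike-in shift), and T cell and NK cell genes above it.

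Ptprc, the gene of CD45, was present at both days. Its brightest probe stood at 3.10 at day 0 and 5.58 at day 10, against 4.18 and 4.25 on the LSK arrays, and its 3 probes differed by 1.62 to 2.48. At day 0 the gene was thus below its LSK levels and at day 10 above them.

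Red cell genes were lower at day 10. All 22 genes of the red cell membrane and its skeleton were above background on both arrays, and 21 of them were lower by 2-fold or more, against 17.9% of all genes. Their median level was 5.54 at day 0 and 1.61 at day 10. The median difference was -4.50, which stayed below 0 (-1.22) after the spike-in shift. In sorted cells measured in bulk, fewer cells of a type and less RNA per cell cannot be told apart. Kel, a blood group protease, stood at 7.58 at day 0 and 2.49 at day 10. Tmod1, which caps actin filaments of the skeleton, stood at 2.85 and -2.11, and Rhag, the Rhesus-associated glycoprotein, at 4.45 and -0.46. The exception was the glucose transporter Slc2a1, at -0.98 at day 0 and 1.62 at day 10.

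Of 24 genes of haem synthesis and iron handling 1 was saturated on both arrays. Of the other 23, 20 were at least 2-fold lower, against 17.9% of all genes. The list had a median of -3.29 that the spike-in shift would bring to about 0. Alas2, the enzyme that starts haem synthesis in red cells, was saturated at 9.04 at day 0 and stood at 3.53 at day 10, so that it was at least 45.7-fold lower. Cpox (7.43 and 3.28), Ppox (6.80 and 2.84) and Urod (8.89 and 5.47), which act later in the pathway, differed by -4.15, -3.96 and -3.42. The transferrin receptor gene Tfrc, which brings iron into the cell, stood at 6.14 and 2.90. Steps that all cells need differed less: the iron-sulphur scaffold gene Iscu by -0.86 and Ftl1 of ferritin by -1.02. The haem exporter gene Flvcr1 was higher (-0.74 and 0.33), and the haem-degrading Hmox1 differed by -0.38.

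The promoters of Alas2 and Kel are shown. Of the red cell and haem list members considered for printing, these had the largest differences with AGATAA in the nearest 150 bases before the start. AGATAA is a core motif of the GATA factors. RefSeq promoters were at hand for 14 of the 22 membrane genes and 16 of the 24 haem genes. Capitals mark the motif, which reads TTATCT where it lies on the other strand. The sequences are from RefSeq (GRCm38.p6), at chrX:150547267-150547416 on the plus strand and chr6:41704326-41704475 on the minus strand.
Alas2: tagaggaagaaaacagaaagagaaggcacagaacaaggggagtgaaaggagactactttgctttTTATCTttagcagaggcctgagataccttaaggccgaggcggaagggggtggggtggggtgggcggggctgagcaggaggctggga
Kel: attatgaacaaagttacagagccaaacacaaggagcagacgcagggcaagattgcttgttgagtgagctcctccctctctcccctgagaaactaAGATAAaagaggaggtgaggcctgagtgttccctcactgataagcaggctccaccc
Across a window of 250 bases before to 50 after the start, AGATAA on either strand was found in 4 of 16 promoters of the membrane list (25%) and 3 of 23 of the haem list (13%), against 11.2% of all 32851 promoters.

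Globin transcripts were still among the brightest at day 10. The adult beta globin Hbb-bt was saturated on both arrays at its brightest probe, and the alpha globin Hba-a1, saturated at day 0, stood at 7.71 at day 10, inside the range of saturated spots. Neither has a fold at its brightest probe. A pair of dimmer Hbb-bt probes, saturated at day 0 only, stood at 9.0 and 7.04 and at 9.17 and 6.88, at least 3.90-fold and 4.90-fold lower. Minor and embryonic globins were dim enough to be measured: Hbq1b stood at 3.47 and -2.02, and the embryonic Hbb-y at 2.09 and -2.26. Hbb-bh1 and Hba-x were above background at day 0 only. Eraf, the chaperone of alpha globin, was saturated at day 0 and stood at 9.01 and 5.52, at least 11.3-fold lower. Over the 5 globin list genes measured on both arrays, saturated ones included, the median was -3.50 (-0.21 after the spike-in shift), and over Hbq1b and Hbb-y, unsaturated on both arrays, it was -4.92 (-1.63 after the shift).

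Genes of late red cell maturation were lower too. Of 24 genes of late erythroblasts and reticulocytes, 22 were lower by 2-fold or more (91.7%, against 17.9% of all genes). The median was -3.19 (0.10 after the spike-in shift). Xpo7, a nuclear export receptor needed for nuclear condensation, stood at 7.38 and 2.97. Ube2o, which tags ribosomes and other proteins for removal in reticulocytes, stood at 8.41 and 4.10, and Bnip3l, which clears mitochondria, at 5.09 and 2.77. Trim58, an erythroid ubiquitin ligase, stood at 1.06 and -3.30, and Bpgm, which makes the metabolite that loosens oxygen from haemoglobin, at 6.10 and 1.18. The autophagy genes Map1lc3b and Map1lc3a stayed within 2-fold (-0.42 and 0.54).

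Erythroid transcription factors were mostly lower. Of 18 genes of erythroid transcription and signalling, 12 were at least 2-fold lower (66.7%, against 17.9% of all genes). Within 2-fold were 5 and higher 1, and the median was -2.42 (0.87 after the spike-in shift). Gata1, the master factor of the lineage, stood at 2.94 and -0.64, the erythroid factor Klf1 at 4.59 and 0.54, and Nfe2 at 6.70 and 3.71. Foxo3, which guards maturing erythroblasts against oxidants, stood at 0.74 and -2.43. Among those within 2-fold, Ldb1 stood at 1.89 and 1.86 and Bcl11a at 2.67 and 2.73. The higher gene was Ikzf1, a factor of lymphocytes, at 2.71 and 3.90.

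Among the 20 largest lower differences by rule, several encode surface or transport proteins. Cd36, a fatty acid receptor, stood at 5.14 at day 0 and -0.55 at day 10. Aqp2, a water channel best known from the kidney, led the set (3.30 and -2.96). The water channel of red cells, Aqp1, stood at 8.43 and 4.98. Further members with their differences were Sowaha (-6.10), Tmcc2 (-5.97), Pdzk1ip1 (-5.92), Vav2 (-5.79), Mageb16 (-5.75), Sox6, a factor of red cell maturation (-5.73), Ypel4 (-5.72), Cyp4b1 (-5.70), Slc22a8 (-5.59), Apol10b (-5.55), Cdkl1 (-5.54), Itsn1 (-5.53), Fhdc1 (-5.53) and Ccdc92b (-5.50). Of the lower genes of the whole array, 336 would stay below 0 after the spike-in shift. Ackr1, the Duffy antigen, which binds chemokines on red cells and endothelium, stood at 4.58 and -0.29 and was 29.4-fold lower. On the LSK arrays Ackr1 was not above background, at -4.24 and -4.08.

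Solute carriers were divided. Of 165 Slc genes measured, 43 were higher and 50 lower by at least 2-fold, with a median of 0.14. Of all genes measured, 23.6% were higher and 17.9% lower. The lower side held Slc6a9, the glycine carrier that feeds haem synthesis, at 8.24 and 3.21, with Slc43a1 (7.06 and 2.74), Slc38a5 (7.43 and 3.43) and Slc16a10 (4.68 and 0.12), all amino acid carriers. The mitochondrial iron importer Slc25a37 was saturated at day 0 (9.26 and 5.51), at least 13.4-fold lower. On the higher side were the glucose carriers Slc2a1 and Slc2a3, the latter at 1.01 and 3.10, and the zinc importer Slc39a4, at -1.43 and 1.15. The insulin-responsive glucose carrier Slc2a4 was lower, at 5.37 and 0.83. The family, Slc6a9, Slc38a5, Slc16a10 and Slc39a4 were picked after their values were seen.

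Histone genes were among the brightest of the day 0 array. Of the 10 brightest genes there, H3c4, H4c1, H4c6, H3c14, H4c14 and H2bc14 encode core histones. Of 32 core histone genes measured, 10 were saturated on both arrays, which leaves their direction unmeasured, and 4 at day 0 only. The other 22 were lower by 2-fold or more, against 17.9% of all genes. The 18 unsaturated genes differed by -4.25 to -1.23, with a median of -2.33 that would be 0.96 after the spike-in shift. H2bc1 stood at 7.84 and 3.59, H2bc18 at 7.67 and 3.47 and H3c3 at 6.39 and 2.98. H2bc14 stood at 9.22 and 5.41. The family and these members were chosen after their values were seen. On the LSK arrays the same 32 genes had a median difference of 0.08. Most histone messages carry no poly(A) tail, the labelling was primed with oligo-dT, and the part of that in these levels was not tested.

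**Figure D2:**
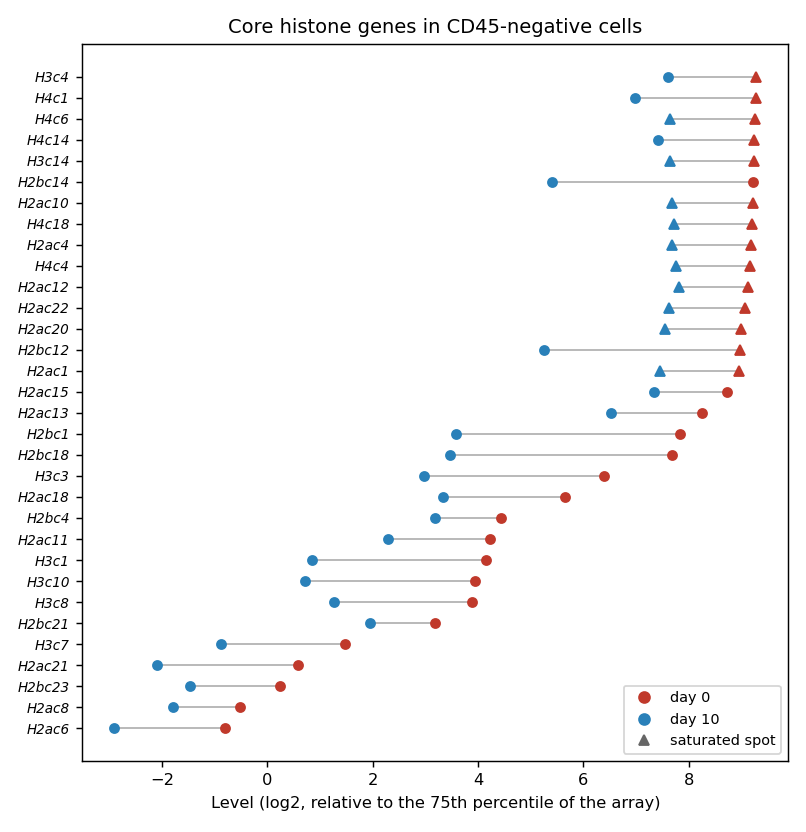
Level of each core histone gene measured in CD45-negative cells at day 0 (red) and day 10 (blue), in log2 relative to the 75th percentile of the array. Triangles mark saturated spots. The 18 unsaturated genes lie lower at day 10 on this scale, with a median of -2.33 that would be 0.96 after the spike-in shift, and the 10 genes saturated on both arrays have no measured direction.

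Mitosis genes were mostly lower with them, and most replication genes were within 2-fold. Of all genes measured, 17.9% were lower and 23.6% higher. In mitosis 24 of 30 genes (80%) were at least 2-fold lower and none higher, with a median of -1.51 (1.78 after the spike-in shift). In DNA replication 12 of 31 (38.7%) were lower, 19 within 2-fold and none higher. The replication median was -0.78 (2.50 after the shift). Ccna2, the cyclin of S phase and entry to mitosis, stood at 6.48 and 4.34, Ccnb2, a mitotic cyclin, at 7.48 and 5.57, and Birc5, survivin, at 8.30 and 6.54. Aurkb, the kinase of the chromosomal passenger complex, stood at 2.62 and 1.53. The cells still held replication genes at day 10: Mcm6 of the replicative helicase stood at 7.39 and 7.25, and Pcna, the sliding clamp, at 7.33 and 6.44. Kinesins, the motors of the spindle and of transport, a family chosen after its values were seen, were lower in 14 of 24 genes and higher in 3, with a median of -1.25 that would be 2.03 after the spike-in shift. On the LSK arrays the mitosis list had a median difference of 0.15.

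The promoters of Ube2c, which helps to destroy mitotic cyclins, and Mki67, the proliferation marker, are shown because both held TTTGAA, the core of the cell cycle homology region through which mitotic genes are repressed in resting cells. Both are from RefSeq (GRCm38.p6), at chr2:164769779-164769928 on the plus strand and chr7:135716380-135716529 on the minus strand, and capitals mark the motif, read as TTCAAA on the other strand.
Ube2c: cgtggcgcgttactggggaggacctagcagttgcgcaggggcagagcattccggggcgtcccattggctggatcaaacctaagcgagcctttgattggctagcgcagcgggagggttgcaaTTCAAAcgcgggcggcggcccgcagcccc
Mki67: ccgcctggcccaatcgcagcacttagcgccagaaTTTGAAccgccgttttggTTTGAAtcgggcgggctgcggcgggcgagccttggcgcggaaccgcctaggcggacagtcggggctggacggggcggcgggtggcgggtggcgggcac
Within the longer window the motif was found in 19 of 26 mitosis promoters (73.1%), against 17.9% of all promoters and 2 of 26 promoters (7.7%) of the replication list. A match is a description of these letters, not evidence of a factor at the site.

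Genes of DNA break repair were mostly within 2-fold. Over the 24 genes 14 were within 2-fold, with a median of -0.42 (2.87 after the spike-in shift). Higher were 4 genes (16.7%, against 23.6% of all genes measured) and lower 6 (25%, against 17.9%), so neither share was far from that of the array. The lower genes included members of homologous recombination and the Fanconi pathway, with Palb2, which joins the BRCA proteins, at -1.41 and -3.31, Fancd2 at -0.67 and -2.08 and Brca1 at 2.92 and 1.53. The 4 higher genes act in end joining: Xrcc4 stood at -1.14 and 0.31, its ligase Lig4 at 1.79 and 3.13, and the Ku subunits Xrcc5 and Xrcc6 differed by 1.12 and 1.07. Other end joining genes of the list stayed within 2-fold. Of 23 p53 target genes measured, 8 were higher (34.8%, against 23.6% of all genes) and 3 lower (13%, against 17.9%). Xpc, which finds bulky DNA lesions, stood at -0.10 and 1.55 and Aen, a nuclease, at -0.04 and 1.35 (but a difference of -0.58 as the mean of its probes), while the antiproliferative Btg2 stood at 6.15 and 4.11 and Sesn1, which restrains growth signals, at 4.98 and 3.39.

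Antioxidant enzymes were lower more often than higher. Gclm, the regulatory subunit for glutathione synthesis, stood at 3.02 and -1.30, Nqo1, a quinone reductase, at 1.47 and -2.28, and Srxn1, which restores peroxiredoxins, at 2.30 and -1.08. Prdx5 (2.54 and 4.07) and the microsomal Mgst1 (2.43 and 3.70) were higher. Over the list 10 of 23 genes were lower by 2-fold or more (43.5%, against 17.9% of all genes). Higher were 2 (8.7%, against 23.6%), and the median was -0.70 (2.58 after the spike-in shift).

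Markers of megakaryocytes and of the macrophages of erythroblastic islands had thinner coverage. Of 22 platelet genes 14 were measured on both arrays, with a median of -1.03 that would be 2.25 after the spike-in shift. Of the 14, 7 were at least 2-fold lower (50%, against 17.9% of all genes) and 3 higher (21.4%, against 23.6%). Above background at day 0 only were 6 more, as were 2.48% of all genes. Among them was Itga2b, the platelet integrin alpha chain (at least 8.18-fold lower). Treml1, a platelet granule receptor, stood at 0.07 and -3.51. Mmrn1, stored in platelets and endothelium, went the other way, at -0.19 and 1.48. Of 25 macrophage genes 12 were not above background on either array, including Cd163, Siglec1 and Mrc1. Dnase2a, the enzyme with which island macrophages digest expelled nuclei, stood at -0.14 and -3.26, Slc40a1, the iron exporter ferroportin, at 3.40 and 1.44, and Cd5l, a secreted scavenger protein, was at least 5.09-fold lower. Emp1, a membrane protein, was higher (-0.67 and 1.13). Of the 10 macrophage genes measured on both arrays 5 were lower (50%, against 17.9% of all genes) and 1 higher (10%, against 23.6%). Their median was -1.02 (2.26 after the spike-in shift). Above background at day 10 only were 2 more, and 1 at day 0 only. With detection on at least 1 array the median was -0.38.

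Cytotoxic lymphocyte genes stood out on the higher side. All 28 NK and cytotoxic genes were above background at day 10 and 7 of them at day 0. These 7 were at least 2-fold higher, with a median of 3.23, and the other 21 were above background at day 10 only, as were 6.64% of all genes. Gzma, the granzyme of the list with the largest bound, stood at -3.84 and 4.07 and was at least 150-fold higher. Il2rb, a receptor chain for interleukins that keep NK cells alive, was at least 109-fold and Ifng, interferon gamma, at least 67.9-fold higher. Ccl5, a chemokine of cytotoxic cells, stood at -0.38 and 5.88. Gzmb, a granzyme that sets off apoptosis in target cells, stood at 2.70 at day 10 and was at least 57.9-fold higher. Prf1, the pore former perforin, was at least 17.2-fold higher, the cathepsin Ctsw at least 64.3-fold, Tbx21, the T-bet factor, at least 42-fold and Eomes, its relative, at least 9.97-fold. Klrd1, the CD94 receptor chain, was at least 50.4-fold higher and Xcl1, a chemokine that calls in dendritic cells, at least 32.8-fold. Ncr1, the NK receptor NKp46, was dim at -1.0 but above background at day 10 only, and Klrb1c, the NK1.1 antigen, stood at -0.89 and 2.34. LSK cells held many of the same transcripts, with 26 of 28 above background at day 0 and 27 at day 10. Of 37 killer cell lectin-like receptor genes, also chosen as a family after their values were seen, 25 were above background at day 10 only and 5 of 6 measured on both were higher. Members of the Klra family are close in sequence, so their probes may share signal.

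The promoters of Gzma and Gzmb are shown because these members of the list had the largest bounds among those with TGTGGT, a core motif of RUNX factors, in the nearest 150 bases. They are from RefSeq (GRCm38.p6), at chr13:113100982-113101131 and chr14:56262335-56262484, both on the minus strand. Capitals mark the motif, read as ACCACA on the other strand.
Gzma: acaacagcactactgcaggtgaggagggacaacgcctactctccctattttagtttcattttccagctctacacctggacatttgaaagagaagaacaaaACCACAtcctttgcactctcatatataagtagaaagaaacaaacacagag
Gzmb: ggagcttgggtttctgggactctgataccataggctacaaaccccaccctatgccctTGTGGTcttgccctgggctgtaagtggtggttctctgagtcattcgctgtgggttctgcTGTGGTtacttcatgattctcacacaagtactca
In the longer window the motif was found in 14 of 26 promoters of the list (53.8%), of 13 of its 21 genes with a promoter, against 16.8% of all promoters and 5 of 25 (20%) for the T cell receptor list. Several of these genes are relatives, so their promoters are not independent.

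Most genes of T cell receptor signalling were higher. Of 27 genes of the receptor and its signalling, 13 of 14 measured on both arrays were at least 2-fold higher, against 23.6% of all genes, with a median of 2.77, and 11 were above background at day 10 only. Cd3d, a chain of the receptor complex, stood at -2.98 and 3.67, and Thy1, a surface glycoprotein of T cells, at -0.47 and 4.79. Cd5, a brake on the receptor, stood at -2.67 and 1.97, Cd6 at -1.20 and 2.55, the kinase Lck at 0.57 and 3.30 and Zap70 at -1.37 and 1.68. Of the other genes with the largest higher differences, Tcrb-V13, a receptor segment, stood at -1.86 and 4.78, Ms4a4b, a membrane protein of T cells, at -1.76 and 4.78, Rgs16, a brake on G protein signalling, at -2.43 and 1.94, Speer3 at -2.82 and 1.53 and Pglyrp2, a peptidoglycan amidase, at -2.62 and 1.54. The receptor segments themselves gave no common direction. Of 20 on the array, a family chosen after its values were seen, 13 were on neither array, 3 were above background at day 10 only and 1 at day 0 only, and the 3 measured on both were 1 higher, 1 lower and 1 within 2-fold, with a median of -0.72 (2.57 after the spike-in shift). Skap1, an adaptor for integrin activation, was at least 42-fold higher. Coreceptors differed among themselves: Cd8a was at least 27.4-fold higher, Cd8b1 stood at 0.92 and -0.08, and Cd4 was not above background on either array. Among the homing genes Ccr7 stood at -2.19 and 0.61, while Il7r (2.62 and 3.89) was bright at both days.

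Receptors of activated and restrained T cells were mostly seen at day 10 only. Of 26 genes, 14 were above background at day 10 only, as were 6.64% of all genes. Of 8 measured on both arrays, 7 were at least 2-fold higher (87.5%, against 23.6% of all genes) and 1, Il13, lower. Pdcd1, the PD-1 receptor, was at least 14.1-fold higher, Tigit at least 7.40-fold and Icos at least 5.02-fold. Cxcr3, a homing receptor of effector cells, stood at -2.06 and 2.96. Cxcr6, another homing receptor, was at least 29.2-fold higher, and Tnfrsf18, the GITR receptor, stood at -0.11 and 3.09. Foxp3, the factor of regulatory T cells, was dim (-2.98) and above background at day 10 only. Il17a, Il10, Il21 and Ctla4 were not above background on either array.

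B cell genes were bright at day 0 already. The median level of 19 genes was 3.10 at day 0 and 4.73 at day 10. At least 2-fold higher were 14 (73.7%, against 23.6% of all genes) and 1, Cd24a, was lower (9.06 and 7.39). The median difference was 1.61. Some genes of the B cell receptors and of recombination were near the top of the scale: Vpreb1 stood at 7.16 and 7.78, Cd79b at 6.70 and 7.57 and Dntt at 6.02 and 7.58, each saturated at day 10, so that these differences are lower bounds, while Vpreb2 was dimmer (1.80 and 3.41). Spib, a B cell factor, stood at 3.0 and 5.09, and Ms4a1, CD20, at 0.92 and 2.82. Cr2 and Fcer2a, genes of mature B cells, were at or near background. Plasma cell genes were higher in 14 of 16 measured and above background at day 10 only in 4 more, with Jchain, which joins IgM and IgA chains, at 1.33 and 7.62, Xbp1, the factor of secretion, at -0.99 and 2.05, Irf4 at 0.19 and 2.46 and Mzb1 at 4.15 and 6.19. Fkbp11, a folding enzyme of secretory cells, was at least 10.3-fold higher. Of 9 immunoglobulin genes measured on both arrays, a family chosen after its values were seen, all 9 were higher, with a median of 3.89, and 6 more were above background at day 10 only.

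Neutrophil lists differed from each other. The primary granule list of 12 genes had a median of -0.05 (3.24 after the spike-in shift). Of these 3 were at least 2-fold higher (25%, against 23.6% of all genes) and none lower. The list is mixed: Calr is also in the chaperone list and Hp in the reticular stromal list. The largest member, Nkg7 (1.81 and 5.33), is also a gene of cytotoxic cells. Mpo stood at 6.80 and 6.24, Elane at 2.54 and 1.57 and Prtn3 at 0.72 and 0.65. Ctsg, Ms4a3 and Prss57 differed by -0.47, -0.55 and -0.02, whereas Ctsc and Igsf6 differed by 1.56 and 1.12. Genes of the later granules were higher in 15 of 18, with a median of 1.88, and S100a9 was saturated on both arrays. Ngp stood at 4.17 and 6.03, the gelatinase Mmp8 at 2.92 and 4.95, and Cd177, a surface protein of mature cells, at -1.21 and 1.52. Genes of mature neutrophils were higher in 17 of 19, with a median of 1.86: the formyl peptide receptors Fpr1 and Fpr2 stood at 0.50 and 3.10 and at 0.67 and 3.63, and Cxcr2 at -0.05 and 1.92. Ccrl2 was lower (2.13 and 0.56).

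Other myeloid markers were mixed, on an array where 23.6% of genes were higher and 17.9% lower. Of 21 monocyte and macrophage genes 8 were higher and 1, Emilin2, lower, with a median of 0.65. Csf1r, the receptor that defines the lineage, stood at 0.10 and 0.42, and Ccr2 of inflammatory monocytes at -0.91 and 0.71. In the dendritic cell list 6 of 12 genes were higher, with Itgax, CD11c, at -0.96 and 1.74, while Zbtb46, a factor of conventional dendritic cells and of other lineages, stood at 0.11 and -3.58. MHC class II genes were higher in 4 of 11, with a median of 0.99. For MHC class I 9 of 19 genes were higher and none lower, with a median of 0.98. B2m, the common light chain, stood at 7.42 and 7.52, and the heavy chain genes H2-D1 (6.19 and 7.17) and H2-M3 (1.38 and 2.83) differed by 0.98 and 1.45. The immunoproteasome subunits Psmb8 (3.81 and 5.36), Psmb9 (3.39 and 5.05) and Psmb10 (4.26 and 5.99) and the peptide pump genes Tap1 (5.16 and 6.82) and Tap2 (-0.79 and 0.94) were higher. The class I regulator Nlrc5 stood at -0.75 and 1.02.

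The constitutive proteasome showed no such difference. Of its 26 subunit genes 25 stayed within 2-fold, with a median of -0.06. The respiratory chain and ATP synthase were similar, with 25 of 26 within 2-fold and a median of -0.07. After the spike-in shift the medians would be 3.23 and 3.21. Cytosolic ribosomal protein genes had a median of -0.32 (2.96 after the spike-in shift), but 16 of the 30 were saturated on at least 1 array and the median without them was -0.04.

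Glycolysis genes were higher in 13 of 23 (56.5%, against 23.6% of all genes), with a median of 1.42. Lower were 4 (17.4%, against 17.9%). Pkm, pyruvate kinase, stood at 1.06 and 3.09, Ldha, which makes lactate, at 5.02 and 6.66, and Hk3, a hexokinase of myeloid cells, at 0.38 and 1.80. Hk1, the main hexokinase of red cells, was lower (5.60 and 4.05), as was the phosphofructokinase gene Pfkm (3.54 and 1.88). The lactate carriers differed in the same manner, with Slc16a1 at 6.33 and 3.84 and Slc16a3 at 2.14 and 3.93.

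Inflammatory signalling was higher in most of its members. Of 22 genes of NF-kB and toll-like receptor signalling, 18 were at least 2-fold higher (81.8%, against 23.6% of all genes). Lower was 1 (4.5%, against 17.9%), and the median was 1.46. Traf1, an adaptor of TNF receptors and a target of NF-kB, stood at -2.47 and 1.79. The subunits Nfkb1 (2.45 and 4.08) and Relb (-0.35 and 1.72) and the inhibitors Nfkbia (4.8 and 6.05) and Tnfaip3 (2.32 and 3.83) were higher as well. Tlr9, the DNA sensor, was lower (3.28 and 1.51). Brakes on cytokine receptors were higher in 7 of 13 genes (53.8%, against 23.6% of all genes) and lower in 1. Socs2 stood at -0.33 and 2.52 and Socs1 at 0.04 and 2.25. Of the BCL2 family, Bcl2l1, which protects erythroblasts, stood at 4.86 and 2.58, and Bcl2, which protects lymphocytes, at -0.99 and 0.90. Bcl2a1a (-0.80 and 1.89) and Bcl2a1b (-1.58 and 1.0) were higher, although these copies are nearly identical and their probes may share signal.

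Interferon-stimulated genes went both ways. Of 35 measured, 18 were at least 2-fold higher (51.4%, against 23.6% of all genes) and 5 lower (14.3%, against 17.9%). The median was 1.02. The guanylate-binding genes Gbp2 (0.76 and 2.33), Gbp3 (0.40 and 2.09) and Gbp5 (0.03 and 1.56) and the factor Irf1 (3.48 and 4.93) were higher, as was Ifi27l2a (4.93 and 7.46). Rsad2, the antiviral enzyme viperin, was bright at day 0, at 7.48, and stood at 3.32 at day 10. Isg15, a ubiquitin-like modifier, stood at 5.90 and 3.04, Cmpk2, a nucleotide kinase, stood at 3.56 and 2.27 and the sensor Ifih1 at 1.98 and 0.81. The general mediators Stat2 and Irf9 differed by -0.12 and -0.56. Immediate early genes, which also respond to handling of tissue, were higher in 14 of 22 (63.6%, against 23.6%) and lower in 2 (9.1%, against 17.9%). Fos stood at 2.94 and 4.07, Jun at 2.13 and 3.63 and Fosb at 0.14 and 2.08. Klf2 was lower (4.85 and 3.35, with a difference of 1.26 at another probe).

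Reticular stromal genes were mostly lower or above background at day 0 only. Of 29 reticular stromal genes 17 were measured on both arrays. Of these, 12 were at least 2-fold lower (70.6%, against 17.9% of all genes) and 1, Ebf1, which B cells share, higher. The median was -1.85 (1.43 after the spike-in shift), and 9 more were above background at day 0 only, as were 2.48% of all genes. Lepr, the leptin receptor that defines these cells, was dim at day 0 (-2.67) and not above background at day 10. Cxcl12 stood at 4.40 at day 0 and 1.25 at day 10, against -2.30 and -1.30 in LSK cells, and its second probe gave -0.06 and -3.13. Igfbp5 stood at 0.90 and -2.04, Pdgfrb at -0.92 and -3.59, and Lpl at -0.33 and -2.21. Dpep1, a membrane peptidase, was at least 7.37-fold lower and Serping1, an inhibitor of complement, at least 9.22-fold. Csf1 was level (-0.13 and 0.14). Red cell and lymphocyte genes differed in the same sort. The red cell membrane list had median levels of 5.54 and 1.61 and the T cell list, over its 14 measured genes, of -0.84 and 2.29. Of the T cell markers, 15 of 27 were above background at day 0 and 26 at day 10. Their part in these differences was not tested.

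Matrix genes followed, with 14 of 19 at least 2-fold lower and 2 higher and a median of -2.57 (0.71 after the spike-in shift). Col1a1 and Col1a2, the chains of type I collagen, stood at 5.32 and 1.88 and at 5.69 and 1.99. Sparc, a matrix glycoprotein of bone, stood at 2.46 and -0.76, Serpinh1, the collagen chaperone, at 0.80 and -2.24, and Pcolce, which helps to trim procollagen, at 1.01 and -1.78. Lamc1 (0.42 and 1.98) and Timp2 (1.22 and 2.83) were the ones higher. In the osteoblast list 6 of 10 genes were lower, with a median of -1.08 (2.21 after the spike-in shift), Alpl, alkaline phosphatase, was higher (-0.61 and 1.21), and Sp7, Dmp1 and Phex were not above background on either array. Of 18 chondrocyte genes 11 were above background on neither array. All 5 measured on both were at least 2-fold lower, with a median of -1.67 (1.62 after the spike-in shift). The fibroblast, pericyte and smooth muscle, adipocyte and osteoclast lists had no common direction, where 23.6% of all genes measured were higher and 17.9% lower. Of 12 fibroblast genes measured 5 were higher and 5 lower, with a median of -0.54 (2.75 after the spike-in shift), and 5 more were above background at day 0 only. Dcn, the matrix proteoglycan decorin, stood at 1.78 and -1.43 and Col5a1, a collagen chain, at 2.57 and -1.04, while Thy1 and Ly6a (0.20 and 3.44), which lymphocytes also express, were higher. Of 11 pericyte and smooth muscle genes 5 were higher and 3 lower, with a median of 0.96 (-0.88 over the whole list without a detection filter). Cnn2, a calponin, stood at 1.24 and 3.50 and Notch3, a receptor of pericytes, at -2.28 and -3.53. Of 14 adipocyte genes 4 were higher and 5 lower, with a median of -0.16 (3.13 after the spike-in shift). Adipoq, the hormone adiponectin, stood at 0.07 and -1.78 and Fasn, fatty acid synthase, at 3.19 and 4.62. Of 13 osteoclast genes 6 were higher and 5 lower, with a median of 0.63 (-0.02 with detection on at least 1 array). Mmp9, a gelatinase that neutrophils also make, stood at 1.38 and 3.85 and the fusion gene Ocstamp at 2.32 and -3.05. Endothelial genes were within 2-fold in 12 of 17, with a median of -0.32 (2.97 after the spike-in shift). Cdh5, VE-cadherin, stood at -2.94 and -3.26, Emcn, a sialoprotein of marrow vessels, at -2.41 and -2.88 and Kdr, the main VEGF receptor, at -2.58 and -1.26. The 20 skeletal muscle genes, which a marrow sort should not hold, had 17 above background at day 0 and 14 at day 10. On the LSK arrays 16 of them were above background at each day. The 13 muscle genes measured on both CD45-negative arrays had a median of -2.33 (0.96 after the spike-in shift), and Myh4, a fast myosin, stood at 6.55 and 4.05.

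Of 41 cytokines and growth factors for blood cells, 25 were above background on at least 1 array and 16 on neither, as were 12060 of the 29338 genes on the array. Of the 25, 16 were measured on both arrays, 7 were above background at day 10 only, and 2 at day 0 only. Over all genes 6.64% were above background at day 10 only and 2.48% at day 0 only. Neither array detected Kitl, Il7, Csf3, Il3, Il5, Epo, Tslp, Il1a, Tnfsf11, Hgf, Ptn, Igf2, Fgf1, Fgf2, Fgf7 or Ctf1. Il34, a ligand of the CSF1 receptor, was at least 9.07-fold lower and Il11 at least 2.40-fold lower at day 10, and Thpo, thrombopoietin, stood at -1.44 and -2.99. Inflammatory cytokines were higher: Il1b stood at 1.27 and 3.65, Tnf at -2.68 and -0.54, Il18 at -2.39 and -0.93 and Ebi3 at 0.92 and 2.73. Osm was at least 6.63-fold, Tnfsf13b, which keeps B cells alive, at least 4.79-fold, Lif at least 4.63-fold, Clcf1 at least 2.65-fold, Csf2 at least 1.33-fold and Egf at least 1.28-fold higher, and Pdgfb was above background at day 10 only (-3.88), below the lowest detected level of day 0. Il16 (3.84 and 5.20), Vegfa (-0.08 and 1.39) and Pdgfa (-2.01 and -0.80, but a difference of -0.01 as the mean of its probes) were higher. Flt3l (1.05 and 1.69), Csf1, Igf1 (-1.23 and -1.48), Vegfc (-1.43 and -1.81), Mdk (-0.61 and -1.01), Il15 (-2.60 and -1.76), Il6 (-2.92 and -2.03) and Tnfsf13 (-0.15 and -0.95) stayed within 2-fold.

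Other niche signals were fewer still, with 15 of 55 measured on both arrays, against 49.5% of all genes. On neither array were 31, as were 12060 of the 29338 genes. Above background at day 10 only were 6 (6.64% of all genes) and at day 0 only 2 (2.48%). Of the 15, 9 were at least 2-fold lower (60%, against 17.9% of all genes) and 2 higher (13.3%, against 23.6%). Their median was -1.05 (2.24 after the spike-in shift). The matricellular genes Ccn1 (-0.59 and -3.07) and Ccn2 (-1.12 and -3.41), which respond to YAP and TGF-beta, were lower, and Gas6 stood at 2.29 and -0.10. Vcam1, an adhesion molecule, stood at 1.19 and -1.19, and Gdf15 at -1.04 and -2.43. Angptl4 (1.25 and 0.20) and Spp1, osteopontin (1.90 and 0.87), were lower. Grem1 was at least 4.29-fold and Tnc at least 2.33-fold lower. Pf4, which platelets release and which is known to hold stem cells quiet, stood at 2.68 and -1.41. Inhba (-2.27 and -0.79) and Ptgs2, the inducible prostaglandin synthase (-1.81 and -0.29), were higher, and Bmp7 was at least 7.24-fold and Tgfb3 at least 4.67-fold higher. Tgfb1 (1.98 and 2.47), Efnb1 (-0.97 and -0.18) and Selp (-1.82 and -1.73) were within 2-fold, as was Ang. The Notch ligands Jag1, Dll1 and Dll4, the Wnt ligands Wnt3a, Wnt4, Wnt5a and Wnt10b and the angiopoietins Angpt1 and Angpt2 were not above background on either array, whereas Jag2 was at least 1.24-fold, Icam1 at least 1.26-fold and Fn1 at least 1.29-fold higher, and Pros1 was above background at day 10 only (-3.43). Also on neither array were, among others, Slit2, Slit3, Postn, Dkk1, Dkk2, Dlk1, Angptl1, Angptl2, Ephb4, Ptges, Tgfb2, Sema3a, Vtn, Ccn3, Cdh2, Sele, Bmp2, Bmp4, Bmp6, Sfrp1 and Sfrp2. The probes of Efnb2 differed in detection.

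**Figure D3:**
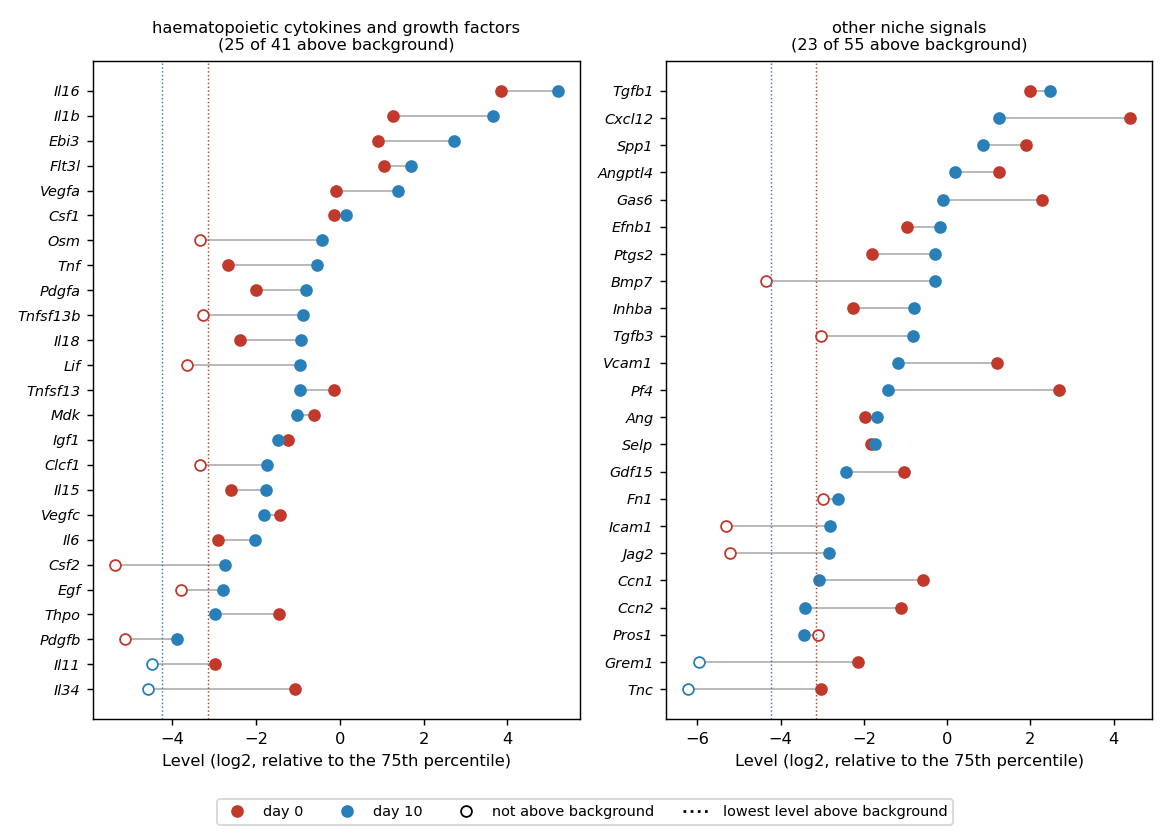
Levels (log2, relative to the 75th percentile) at day 0 (red) and day 10 (blue) of the haematopoietic cytokines (left, 25 of 41) and other niche signals (right, 23 of 55) above background on at least 1 CD45-negative array. Open circles were not above background, and dotted lines mark the lowest level above background on each array, -3.15 at day 0 and -4.24 at day 10. Cxcl12 and Il34 lie lower at day 10 and Il1b, Tnf and Osm higher, relative to the array, an order that the spike-in shift would turn for Cxcl12.

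Of 13 chemokines measured on both arrays 5 were higher (38.5%, against 23.6% of all genes) and 3 lower (23.1%, against 17.9%). Their median was 0.42 (-0.85 over the whole list without a detection filter). Ccl3, an inflammatory chemokine, stood at 0.48 and 2.87, Ccl6 at 2.93 and 4.57 and Cxcl10, induced by interferon, at -0.67 and 0.46. Cxcl9, also induced by interferon, was lower (-1.26 and -3.08). Ccl19, a chemokine of lymphoid stroma, stood at -1.26 and -2.89, and Cx3cl1 was at least 6.38-fold lower. Of 14 receptors measured 8 were higher (57.1%, against 23.6%) and 2 lower (14.3%, against 17.9%). Cxcr5, the follicular homing receptor, stood at -1.26 and 0.78, S1pr4 at -1.83 and 0.32 and S1pr1, which lets lymphocytes leave tissue, at 0.88 and 2.13. Cxcr4, the receptor of CXCL12, was within 2-fold (3.61 and 3.12). Ccr10 was above background at day 10 only, at least 2.95-fold higher.

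Genes of the sex chromosomes gave an uneven picture. Xist, the RNA that silences an X chromosome in female cells, was above background at all 4 of its probes at day 10 and at none at day 0. Its brightest probe stood at -4.53 at day 0 and 3.81 at day 10, at least 125-fold higher. On the LSK arrays 3 of the 4 probes were above background at day 10, the brightest at -1.96, and none at day 0. Tsix, its antisense partner, named after its values were seen, was above background at day 10 only, at -0.67. The Y-linked genes were seen on both arrays: Ddx3y stood at 2.0 and 1.17, Eif2s3y at 2.31 and 1.09, Kdm5d at -0.97 and -0.65 and Uty at -2.36 and -3.69. At day 10 both kinds of transcript were thus above background, and at day 0 the Y-linked ones without Xist. The part of donor and recipient cells in this was not tested.

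**Figure D4:**
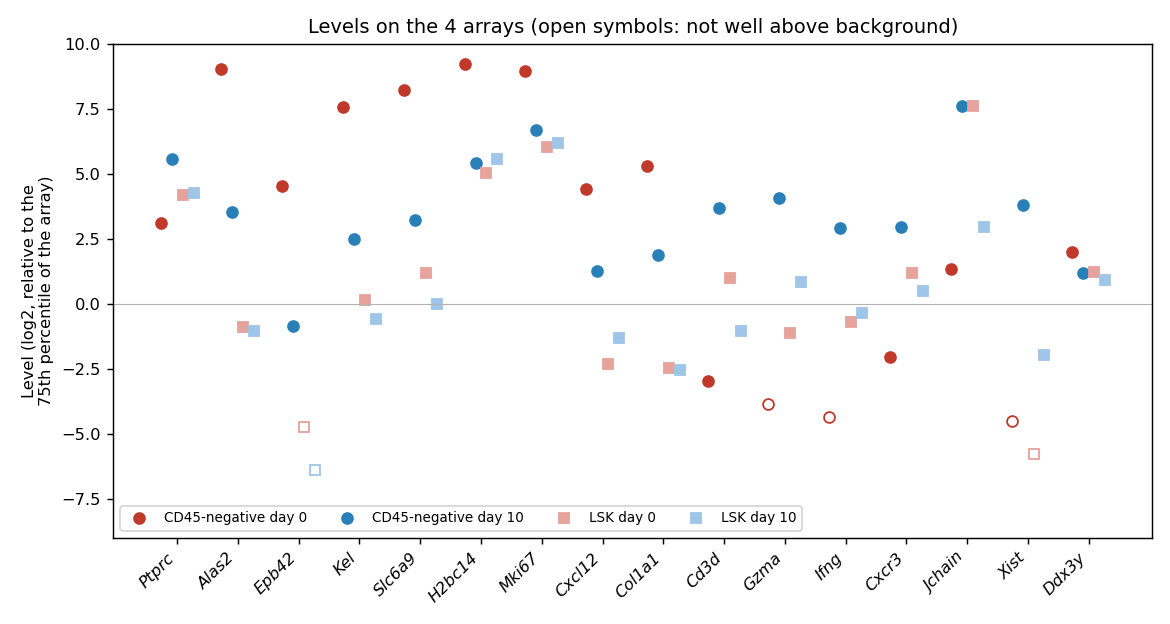
Level of 16 genes on the CD45-negative arrays (circles) and the LSK arrays (squares), in log2 relative to the 75th percentile of each array, with day 0 in red shades and day 10 in blue shades. Open symbols were not well above background. Red cell genes are bright on the CD45-negative day 0 array, and Gzma, Ifng and Xist are above background on the CD45-negative array at day 10 and not at day 0.

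More genes differed between the days than in LSK cells. Over 14193 genes measured on all 4 arrays, 40.8% were at least 2-fold apart between the days in CD45-negative cells and 3.07% in LSK cells, with a Pearson r across genes of 0.89 and 0.99. Genes on an array are not independent replicates. Of the 3366 higher genes also measured on both LSK arrays, 78 were at least 2-fold higher in LSK cells as well and 111 lower. Of the 2428 lower genes, 95 were lower in LSK cells as well and 29 higher.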

How the data were processed

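RNA of 4 sorted populations was hybridised to 1-colour Agilent mouse arrays, 1 array each. Spot values were extracted by the authors in Agilent Feature Extraction (version 10.5.1.1 in the headers). The deposited spot files hold fluorescence intensity values: raw means, local background and a processed signal that is background-subtracted and detrended. They also hold detection, saturation and outlier flags and a control type (unit: other, per the file headers). The deposited series table holds the authors' log2 values. From their values, the 75th percentile of each array is near 0 and at least 99.98% of probes equal the log2 processed signal minus a constant. The array design uses mm9, per the file headers.

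Control, outlier and noncoding probes were left out, and the log2 processed signal minus the array's 75th percentile was taken. Each gene has the probe brightest over the 4 arrays. Of 40628 gene probes, 28136 (69.3%) took a current symbol by accession from RefSeq. A fold was taken where the probe was well above background on both arrays. Where no probe of a gene was above background on 1 array, the text gives "at least" a fold, set against that array's dimmest detected level (-3.15 at day 0, -4.24 at day 10) or the probe's own level if higher. A difference of 2-fold is a size, not a test, and the number of arrays limits the precision. Replicate spots had a median SD of 0.103 and 0.095 log2 units. The scripts were tested on simulated data.

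Members of 54 gene lists, 1179 different genes, were chosen with earlier results of these data known. Named genes were the 20 largest unsaturated differences each way that kept 2-fold under 4 of the alternatives (normexp, mean of probes and both normalizations); the 8 largest bounds each way; the 10 brightest genes of each array; list members, largest first; all listed cytokines and niche signals; and Ptprc. Some genes that this rule names are not reported here. Genes outside it are marked in the text. Alternatives were normexp background correction (limma 3.58.1, R 4.3.3, offset 50), normalization by quantiles or by cyclic loess, scaling on the median or on detected probes, the deposited table, the mean of probes, the brightest probe over the 2 arrays, saturated genes left out, 2 other detection filters and a spike-in shift. Promoters came from RefSeq tables (GRCm38.p6); no genome was used here.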

Additional observations from a re-analysis of the deposited data

Results flagged for a closer look

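The genes below were at least 2-fold apart between the days in opposite directions in the CD45-negative and the LSK sort. The difference between the sorts was not tested, since each rests on 1 array a day. Jchain was higher by 6.30 log2 units in CD45-negative cells and differed by -4.63 in LSK cells. Ighv1-77 differed by 4.99 and -3.13, Igh-6 by 4.73 and -3.63, Igh-VJ558 by 4.46 and -2.67, and Derl3, of the plasma cell secretory pathway, by 4.12 and -2.56. Cd3d differed by 6.64 and -2.04, Tcrb-V13 by 6.64 and -1.16 and Klra7 by 5.22 and -1.08. Cd36 went the other way, with -5.69 in CD45-negative and 1.99 in LSK cells, where it was dim (-3.51 and -1.53).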

How the results depend on the processing

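With 1 array a day no array could be left out. No paired analysis was possible because each group has 1 array. Over 9 of the 12 alternatives the counts of genes at least 2-fold higher and lower ranged from 2866 to 3592 and from 2005 to 2664. With a gene above background on at least 1 array they were 4680 and 3334. With no detection filter 4811 were higher and 10880 lower, 30.7% of them higher against 56.9% in the values reported, and with the spike-in shift 13718 were higher and 130 lower, 99.1% higher. Of 594 list medians under the 11 alternatives other than the spike-in shift, 513 moved by less than 0.27, the 95% range of a difference of single spots, 75 by more, and 6 of a reported size of at least 0.3 changed sign. The spike-in shift would turn 23 of the 26 list medians below 0. Without a detection filter the median was -0.66 for osteoclast markers, -0.88 for pericyte and smooth muscle markers and -0.85 for chemokines. The osteoclast median was -0.02 with detection on at least 1 array. The ribosomal protein median was 0.20 with quantile and 0.04 with cyclic loess normalization. Of 2868 differences of named genes under the same alternatives, 2551 moved by less than that, 314 by more, and 3 of genes reported as 2-fold apart changed sign: Aen to -0.58 and Pdgfa to -0.01 with the mean of probes, and Klf2 to 1.26 with the brightest probe over the 2 arrays. The cause of these changes was not tested. The lowest levels above background, -3.15 and -4.24, limit what could be compared.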

Other observations

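Some of the largest bounds came from genes with no known part in marrow. Atoh7, a factor of retinal neurons, had the largest bound of all, at 7.61 at day 10 and at least 1736-fold higher, but its other probe was not above background on any of the 4 arrays. Gfap, a glial filament gene, was at least 49.3-fold lower, and Vmn1r195 and Taar4, genes of chemosensory receptors, at least 72.1-fold and 70.1-fold lower, each above background at day 0 only.

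Noncoding probes stood apart from gene probes. Of 7025 measured on both arrays, 420 were at least 2-fold higher and 2821 lower, with a median of -0.76 against 0.19 for genes. Olfactory receptor genes, which marrow is not known to express, were above background on both arrays in 51 of 1069 cases, and 30 of these were lower and none higher, with a median of -1.20 that would be 2.08 after the spike-in shift. Zinc finger genes named Zfp were higher in 66 of 226 and lower in 12, with a median of 0.59. Of all genes measured, 23.6% were higher and 17.9% lower. The families were chosen after their values were seen.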
